A study of Homo sapiens with 9 samples.

Results

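The genes described here are 36 heat shock genes of the cytosol and the mitochondrion, taken as a list of symbols and measured in U-373MG cells with or without 2 synthetic ShK-like peptides of jellyfish origin. The list was set by gene name, with earlier results of these data known. It holds 9 members of the HSP70 family, 3 of HSP90, 4 small heat shock proteins and 6 of HSP40. The rest are 6 chaperonin subunits, 6 cochaperones and 2 heat shock factors. All 36 were among the 24462 gene symbols of the count files, and 35 were among the 13676 symbols with enough reads for a test; HSPA1A was the member left out of the test. U-373MG is a glioblastoma astrocytoma line kept in culture, and stocks under this name in some collections have been found to be another glioblastoma line. The groups were cells given NnK-1 (3 libraries), cells given CBRV1-10493 (3 libraries) and untreated control cells (3 libraries), each peptide being given at a dose of 200 nM over 48 h, with the same controls serving both peptides. The sources used here name no vehicle or unrelated peptide for the controls, and all values come from a single cell line.

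Heat shock proteins are chaperones that bind unfolded or partly folded proteins. HSP70 proteins hold and release client stretches in cycles of ATP use, HSP40 proteins bring clients to HSP70 and start its ATP hydrolysis, and HSP90 takes on late folding steps of kinases and steroid receptors. Small heat shock proteins keep damaged proteins soluble without using ATP, and chaperonins fold proteins inside a closed barrel. Under heat or proteotoxic stress the factor HSF1 forms trimers that bind repeats of GAA and its inverse TTC in promoters, and HSPA1A, HSPA1B, DNAJB1, HSPB1, BAG3 and HSPH1 are among its textbook targets. Glioma cells commonly hold high CRYAB and HSPB1 without any added stress.

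Libraries held 11203094 to 13491075 counts, and 15305 to 15968 symbols had at least 1 read. The kit reads the 3′ ends of messenger RNA, so levels are given as CPM, a count over its library's total scaled to 1000000, with no division by transcript length, and the order of levels between genes was not tested. Of 9 glioma and astrocyte markers, 7 passed the filter on low counts, among them VIM and GFAP, while AQP4 and ALDH1L1 were at or near 0; the summed level of the 9 was 7032 to 10542 CPM in NnK-1 cells, 8631 to 10190.0 CPM in CBRV1-10493 cells and 8566 to 9715 CPM in control cells. The summed microglia and macrophage markers lay at 1.43 to 1.79 CPM in NnK-1 cells. They lay at 1.08 to 1.97 CPM in CBRV1-10493 cells and 1.59 to 3.85 CPM in control cells. Oligodendrocyte markers summed to 44.9 to 53.8, 46.8 to 50.1 and 49.7 to 54.6 CPM in the same groups. Neuron markers summed to 13.4 to 19.9, 12.7 to 16.8 and 11.6 to 19.9 CPM in the same groups. Over all libraries, epithelial markers summed to 7.23 to 10.2 CPM and endothelial markers to 0.357 to 2.31 CPM. The oligodendrocyte marker MBP averaged 34.5 CPM over the 9 libraries, beside 23.4 CPM for GFAP. On the first 2 principal components of all genes, which held 27.6% and 14.9% of the variance, NnK-1 replicate 2 lay farthest out on the first and CBRV1-10493 replicate 1 on the second, so the comparisons were also made without these 2 libraries, an alternative chosen after seeing the data.

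Neither peptide was followed by a change of any heat shock gene that passed the test. In NnK-1 cells against control cells 0 of the 35 tested members had an adjusted p under 0.05, where 0% of all genes tested did (edgeR's quasi-likelihood test with Benjamini-Hochberg adjustment over all genes). The same count was 0 of 35 in CBRV1-10493 cells against control cells, where 0% of all genes passed, and 0 of 35 in CBRV1-10493 cells against NnK-1 cells, where again 0% of all genes passed. At an unadjusted p under 0.05, 4 members differed in NnK-1 cells against control cells, where 7.33% of all genes did, and 1 member each in CBRV1-10493 cells against control cells, where 2.89% did, and against NnK-1 cells, where 4.31% did. With another tool, the Wald test of DESeq2, the members passing after adjustment were also 0 in each comparison. With no filter on low counts STIP1 passed in NnK-1 cells against control cells. In that setting each gene was given the spread of the trend alone, and further genes passed, as counted in the closing sections.

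The sizes of the differences were bounded by their intervals. The median log2 fold change of the 35 members was 0.04 in NnK-1 cells against control cells, beside 0.00 over all genes tested, with a range of -0.47 to 0.33. It was -0.01 in CBRV1-10493 cells against control cells, beside 0.00 over all genes, with a range of -0.36 to 0.40. Between the peptides, CBRV1-10493 over NnK-1, it was -0.01 beside 0.00 over all genes, with a range of -0.32 to 0.34. In each comparison the 95% interval of 34 of 35 members lay within a 2-fold change in either direction, HSPB8 being the exception, and intervals within a 1.5-fold change held for 26, 29 and 29 members in the 3 comparisons in this order. In bulk RNA, fewer cells of a kind and less RNA per cell cannot be told apart.

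Summed by family, the chaperones kept nearly the same share of the messenger pool in all groups. All 36 members together made up 1.18%, 1.11% and 1.14% of counts in the NnK-1 libraries, 1.16%, 1.13% and 1.14% in the CBRV1-10493 libraries and 1.21%, 1.15% and 1.14% in the control libraries. The HSP90 genes summed to 4682 ± 111 CPM in NnK-1 cells, 4599 ± 28.3 CPM in CBRV1-10493 cells and 4844 ± 248 CPM in control cells, and the small heat shock proteins to 2720.1 ± 80.0, 2879 ± 94.5 and 2859.8 ± 119 CPM in the same groups (SD, n = 3 libraries each, here and below). The chaperonins summed to 1554 ± 79.4 CPM in NnK-1 cells, 1483 ± 7.36 CPM in CBRV1-10493 cells and 1526 ± 33.1 CPM in control cells. The HSP70 genes summed to 1036 ± 69.0 CPM in NnK-1 cells, 1044 ± 18.9 CPM in CBRV1-10493 cells and 1025 ± 57.0 CPM in control cells, and the HSP40 genes to 642 ± 49.8, 629.8 ± 44.6 and 610.4 ± 7.64 CPM in the same groups. The cochaperones summed to 653 ± 114 CPM in NnK-1 cells, 664 ± 24.4 CPM in CBRV1-10493 cells and 702 ± 38.8 CPM in control cells, the widest spread relative to its mean being that of the NnK-1 libraries. The heat shock factors summed to 160 ± 14.4, 138 ± 9.88 and 141 ± 18.8 CPM in NnK-1, CBRV1-10493 and control cells. No test was made on a sum.

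**Figure D1:**
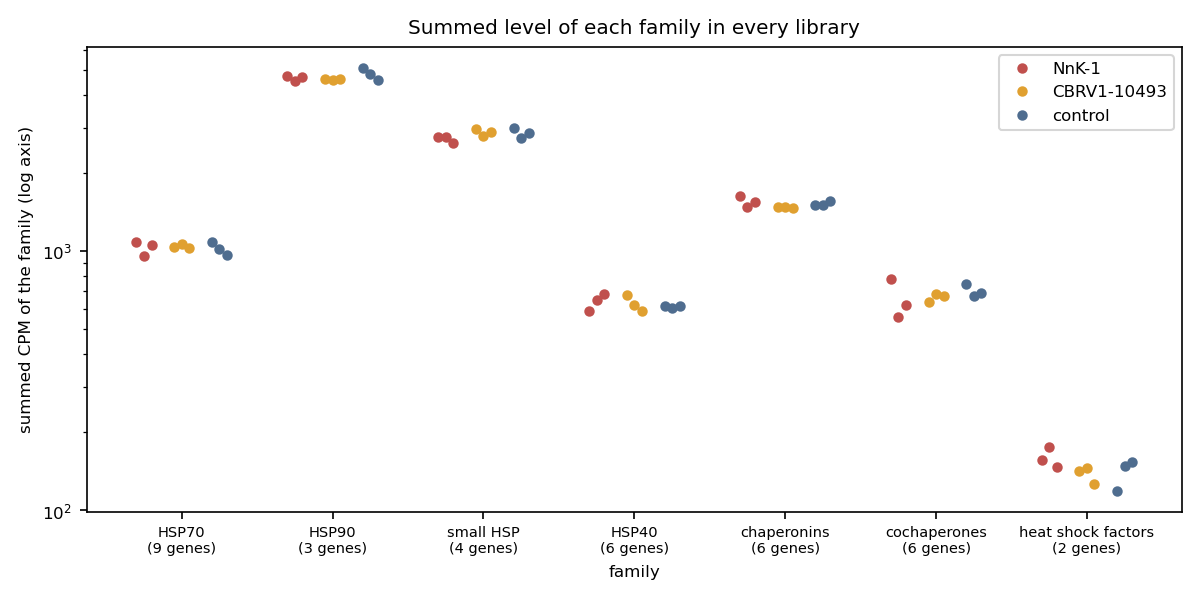
Summed CPM of each heat shock family (log10 axis) in NnK-1, CBRV1-10493 and control libraries, each point being 1 library. HSP90 and the small heat shock proteins lie at 2628 to 5094 CPM in every library. On the log axis the points of the 3 groups lie close together within each family, the heat shock factors ranging from 119 to 175 CPM.

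**Figure D2:**
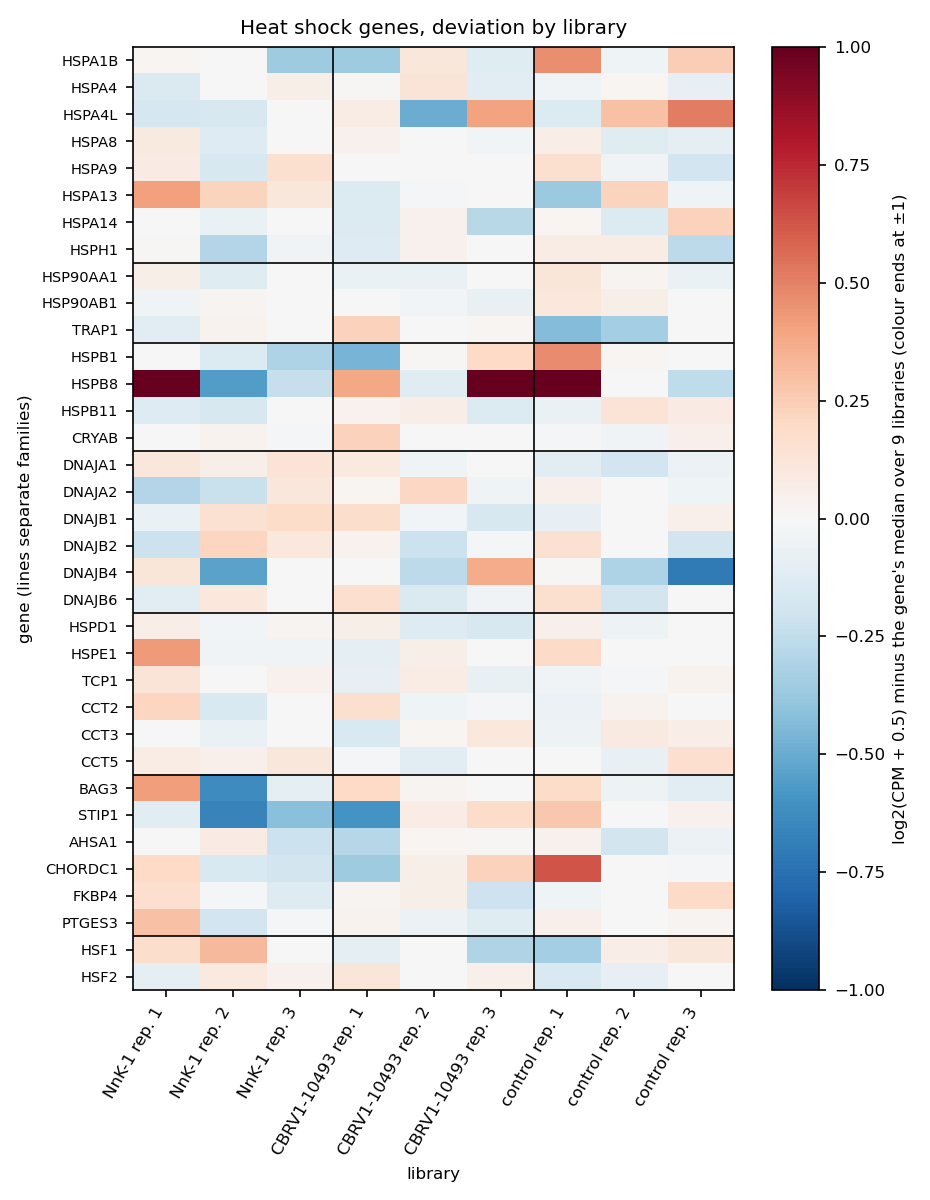
Log2 CPM (pseudocount 0.5) of the tested members by library, as the difference from the member's median over the 9 libraries. NnK-1 libraries stand first, then CBRV1-10493 and control. HSPB8 is high in NnK-1 replicate 1, CBRV1-10493 replicate 3 and control replicate 1. STIP1 is low in NnK-1 replicates 2 and 3 and CBRV1-10493 replicate 1, and BAG3 is low in NnK-1 replicate 2. Most rows vary little.

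HSF1 and HSF2 are transcription factors of the heat shock response. HSF1, the master activator of the heat shock response, is held inactive by chaperones in unstressed cells and is switched on at the protein level, so its messenger need not follow its activity. HSF1 stood at 121, 134 and 107 CPM in the NnK-1 libraries, 99.9, 106 and 86.7 CPM in the CBRV1-10493 libraries and 84.5, 112 and 115 CPM in the control libraries. Each CBRV1-10493 library lay below each NnK-1 library, and control replicate 1 was the lowest of all. The log2 fold change was -0.31 in CBRV1-10493 cells against NnK-1 cells (95% interval -0.59 to -0.04; adjusted p = 0.994, edgeR's quasi-likelihood test), 0.24 in NnK-1 cells against control cells (-0.04 to 0.51; adjusted p = 0.715) and -0.08 in CBRV1-10493 cells against control cells (-0.35 to 0.20; adjusted p = 1). It was 1 of 3 tested members whose CBRV1-10493 libraries all lay below the NnK-1 libraries, where 4.17% of all genes tested did so. Without control replicate 1 the value in NnK-1 cells against control cells was 0.10. The 3′ end of HSF1 shares 15.3% of its 75-base windows with the neighbouring gene DGAT1. HSF2, a related factor that can form mixed trimers with HSF1, had 36.5, 41.7 and 40.2 CPM in NnK-1 libraries, 42.4, 38.9 and 40.3 CPM in CBRV1-10493 libraries and 34.9, 36.8 and 38.7 CPM in control libraries. All CBRV1-10493 libraries of HSF2 lay above all control libraries, by 0.15 on the log2 scale (-0.12 to 0.43; adjusted p = 1).

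The letters of the motif that HSF1 is known to bind stand in several of the members' promoters. RefSeq (GRCh38.p14) gave promoters, 250 bases before to 50 after a start, for 31 of the 36 members, 44 promoters in all. A run of 3 units, GAANNTTCNNGAA on either strand, stood in 7 of these 44 (15.9%) and in 172 of all 35116 promoters (0.49%). The genes that hold it are CHORDC1, DNAJA1, DNAJB6, HSP90AA1, HSP90AB1, HSPA8 and HSPD1. A pair of units, GAANNTTC or TTCNNGAA, which is part of the longer run and reads the same on both strands, stood in 19 of 44 (43.2%) and in 13.5% of all promoters. Below are 4 promoters, shown because 3 belong to genes with the smallest p or a single library apart and the last to the member with the most counts; capitals mark every GAANNTTC or TTCNNGAA, and positions count from the start as +1. DNAJA1 (chr9:33025023-33025322, plus strand) holds the run of 3 units at position 4, CHORDC1 (chr11:90223000-90223299, minus strand) holds 3 overlapping runs at -60, -55 and -50, STIP1 (chr11:64185921-64186220, plus strand) holds only a pair, at position 14, and HSP90AA1 (chr14:102086995-102087294, minus strand) holds a run at -88.
DNAJA1: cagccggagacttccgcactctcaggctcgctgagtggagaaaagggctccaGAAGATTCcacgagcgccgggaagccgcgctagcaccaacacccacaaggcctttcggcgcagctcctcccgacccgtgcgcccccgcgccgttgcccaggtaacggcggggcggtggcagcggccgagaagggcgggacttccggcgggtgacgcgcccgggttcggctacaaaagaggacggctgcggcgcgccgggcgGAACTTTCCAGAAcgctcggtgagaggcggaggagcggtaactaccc
CHORDC1: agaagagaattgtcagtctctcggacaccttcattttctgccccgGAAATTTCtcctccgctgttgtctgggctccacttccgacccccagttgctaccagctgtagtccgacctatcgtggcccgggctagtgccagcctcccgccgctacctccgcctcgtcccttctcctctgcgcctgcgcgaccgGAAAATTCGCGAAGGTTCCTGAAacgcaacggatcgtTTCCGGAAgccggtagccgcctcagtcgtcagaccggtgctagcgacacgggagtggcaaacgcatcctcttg
STIP1: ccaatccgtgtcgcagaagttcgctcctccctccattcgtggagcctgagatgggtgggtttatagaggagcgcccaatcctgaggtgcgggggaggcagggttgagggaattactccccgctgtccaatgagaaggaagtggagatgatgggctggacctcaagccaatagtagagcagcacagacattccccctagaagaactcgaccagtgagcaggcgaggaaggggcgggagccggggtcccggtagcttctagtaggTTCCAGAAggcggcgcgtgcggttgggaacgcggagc
HSP90AA1: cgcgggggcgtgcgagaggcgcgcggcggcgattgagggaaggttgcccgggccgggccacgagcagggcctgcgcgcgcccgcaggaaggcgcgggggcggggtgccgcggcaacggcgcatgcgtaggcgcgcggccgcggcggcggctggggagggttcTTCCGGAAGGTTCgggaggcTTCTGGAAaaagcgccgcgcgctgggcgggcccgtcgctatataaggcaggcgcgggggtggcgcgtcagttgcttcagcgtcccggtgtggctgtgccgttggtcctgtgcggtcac
The matches describe these windows only, and binding was not measured. The genes with the run of 3 units had values on both sides of 0. In NnK-1 cells against control cells DNAJA1 had a log2 fold change of 0.25, HSPA8 0.06, HSPD1 0.05, DNAJB6 0.03, HSP90AA1 -0.02, HSP90AB1 -0.03 and CHORDC1 -0.25, none of which passed the test.

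Of the stress-inducible HSP70 pair, HSPA1A was almost without reads. Its raw counts were 0, 1 and 0 for the NnK-1 replicates, 11, 11 and 3 for the CBRV1-10493 replicates and 0, 5 and 0 for the control replicates, where 3 counts of a library's total, the most that a count of 0 allows, are 0.222 to 0.268 CPM. Pooled over a group this is 25 of 36418014 counts in CBRV1-10493 cells and 1 of 35878405 in NnK-1 cells, a ratio of 24.6 with an exact interval of 4.03 to 1011, and against 5 of 38390645 in control cells a ratio of 5.27 (1.98 to 17.6); both intervals cover counting error only. The CBRV1-10493 libraries overlapped the control libraries. With no filter on low counts the difference of CBRV1-10493 cells from NnK-1 cells had an adjusted p of 0.945 (edgeR's quasi-likelihood test). HSPA1A and HSPA1B encode nearly the same protein, and 17.6% of the 75-base windows in the last 500 bases of HSPA1A occur unchanged in HSPA1B, so reads may be split between them. Each symbol of the pair also stood on 5 rows of the count files, which were summed. How reads shared between rows were counted is not stated in the sources used here, so the low counts of HSPA1A need not mean a low level.

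HSPA1B, the other inducible gene of the pair, carried most of the reads. It stood at 7.97, 7.85 and 6.02 CPM in NnK-1 libraries, 6.04, 8.52 and 7.18 CPM in CBRV1-10493 libraries and 11.1, 7.62 and 9.41 CPM in control libraries. Control replicate 1 was the highest, and the groups overlapped. The log2 fold change was -0.34 in NnK-1 cells against control cells (-0.87 to 0.20; adjusted p = 0.813) and -0.36 in CBRV1-10493 cells against control cells (-0.89 to 0.18; adjusted p = 1). Neither value reached the threshold, and these intervals do not reach a 2-fold change in either direction.

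HSPA8, the constitutive cytosolic HSP70, varied less between libraries. Its libraries read 564, 485 and 529 CPM in NnK-1 cells, 547, 531 and 520.5 CPM in CBRV1-10493 cells and 553, 486 and 498 CPM in control cells. Its log2 fold change was 0.06 (-0.11 to 0.24) for NnK-1 and 0.07 (-0.11 to 0.25) for CBRV1-10493 over control cells, and 0.01 (-0.17 to 0.19) between the peptides. HSPA13, an HSP70-like ATPase of microsomes, gave 47.1, 41.3 and 38.4 CPM in NnK-1 libraries, 32.1, 35.1 and 35.4 CPM in CBRV1-10493 libraries and 27.2, 41.5 and 34.3 CPM in control libraries. The NnK-1 libraries of HSPA13 lay above all CBRV1-10493 libraries but overlapped the control libraries. Its log2 fold change was 0.33 in NnK-1 cells against control cells (0.01 to 0.64; adjusted p = 0.676, edgeR's quasi-likelihood test) and -0.32 in CBRV1-10493 cells against NnK-1 cells (adjusted p = 0.994). The value in NnK-1 cells against control cells was 0.18 without control replicate 1 and 0.48 without control replicate 2.

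HSPA4L, a nucleotide exchange factor that resets HSP70, read 9.80, 9.82 and 11.1 CPM in NnK-1 libraries, 11.7, 7.70 and 14.8 CPM in CBRV1-10493 libraries and 9.99, 13.7 and 16.0 CPM in control libraries. Control replicate 3 lay 1.52-fold above the median of the other 8 libraries, and the log2 fold change in NnK-1 cells against control cells was -0.35 (-0.87 to 0.17; adjusted p = 0.794). An antisense gene covers its whole 3′ end, and the sources used here do not state how strand was handled, so its reads cannot be assigned to HSPA4L alone. The remaining HSP70 members, the exchange factors HSPA4 and HSPH1, the mitochondrial HSPA9 that pulls proteins through the inner membrane, and the ribosome-linked HSPA14, had log2 fold changes of -0.15 to 0.08 over the 3 comparisons, and 0 of them had an unadjusted p under 0.05.

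HSP40 proteins choose clients for HSP70. DNAJA1, a farnesylated cytosolic member, had 118, 114 and 119.7 CPM in the NnK-1 libraries, 116, 105 and 109 CPM in the CBRV1-10493 libraries and 101, 95.5 and 104 CPM in the control libraries. All 6 libraries of peptide-treated cells lay above all 3 control libraries, and the controls are the same in both comparisons. The log2 fold change was 0.25 in NnK-1 cells against control cells (0.04 to 0.45; adjusted p = 0.620, edgeR's quasi-likelihood test) and 0.15 in CBRV1-10493 cells against control cells (-0.06 to 0.36; adjusted p = 1). It was the 1 tested member higher in NnK-1 cells without overlap, where 5.08% of all genes were, and with HSF2 1 of 2 tested members higher in CBRV1-10493 cells without overlap, where 3.91% of all genes were. Over the 17 alternatives its value in NnK-1 cells against control cells stayed between 0.21 and 0.28.

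DNAJB1, a strongly heat-inducible HSP40 and a standard readout of HSF1, read 288, 334 and 341 CPM in NnK-1 libraries, 341, 295 and 269.7 CPM in CBRV1-10493 libraries and 284, 301 and 311 CPM in control libraries. The groups overlapped, with log2 fold changes of 0.13 (-0.09 to 0.35) in NnK-1 cells and 0.03 (-0.19 to 0.25) in CBRV1-10493 cells against control cells. DNAJA2, the second A-type cytosolic HSP40, stood at 99.9, 105 and 133 CPM in NnK-1 libraries, 124, 142 and 119 CPM in CBRV1-10493 libraries and 127, 122 and 119 CPM in control libraries, and its groups overlapped, with a log2 fold change of 0.17 (-0.07 to 0.42) between CBRV1-10493 and NnK-1 cells. DNAJB4, an HSP40 best known from muscle, had 11.3, 6.96 and 10.4 CPM in NnK-1 libraries, 10.3, 8.52 and 13.5 CPM in CBRV1-10493 libraries and 10.4, 8.26 and 6.15 CPM in control libraries. Control replicate 3 of DNAJB4 lay at 0.594 of the median of the other 8 libraries, and its log2 fold change of 0.40 in CBRV1-10493 cells against control cells had an interval of -0.15 to 0.95 (adjusted p = 1, edgeR's quasi-likelihood test). GIPC2, on the same strand, spans the 3′ end of DNAJB4. DNAJB2 and DNAJB6, which keep aggregation-prone proteins soluble, had log2 fold changes of -0.12 to 0.08 over the 3 comparisons.

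**Figure D3:**
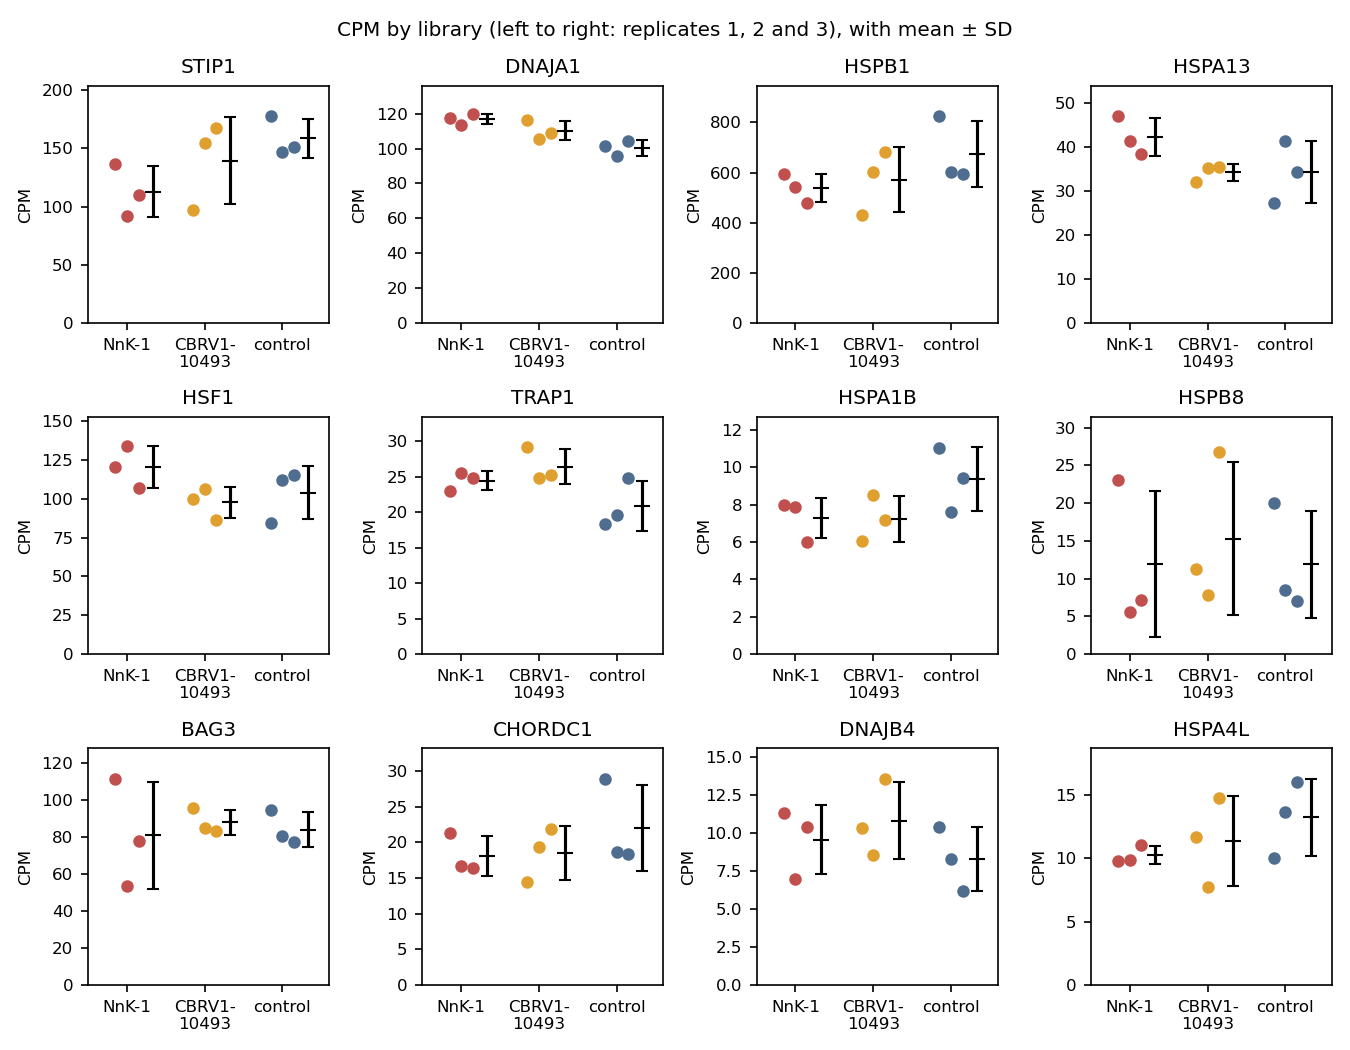
CPM by library of 12 members, with NnK-1, CBRV1-10493 and control from left to right, points for replicates 1, 2 and 3, and a bar for the mean with its SD (n = 3); each axis starts at 0. STIP1 has its 3 lowest points at 92.3 to 109.8 CPM in NnK-1 replicates 2 and 3 and CBRV1-10493 replicate 1, and HSPB8 has 1 high library in each group.

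HSP90 is among the most abundant proteins of the cytosol. HSP90AA1, its stress-inducible form, read 2579, 2272 and 2476 CPM in NnK-1 libraries, 2368, 2361 and 2479 CPM in CBRV1-10493 libraries and 2692, 2519 and 2359.9 CPM in control libraries. HSP90AB1, the constitutive form, read 2169, 2260.3 and 2218 CPM in NnK-1 libraries, 2224, 2181 and 2105 CPM in CBRV1-10493 libraries and 2383, 2303 and 2212 CPM in control libraries. The groups overlapped for both genes. Against control cells the log2 fold changes were -0.02 (-0.18 to 0.13) in NnK-1 cells and -0.06 (-0.21 to 0.10) in CBRV1-10493 cells for HSP90AA1, and -0.03 (-0.18 to 0.13) and -0.07 (-0.22 to 0.08) for HSP90AB1, among the narrowest intervals of the list. TRAP1, the mitochondrial HSP90, had 23.0, 25.5 and 24.9 CPM in NnK-1 libraries, 29.3, 24.8 and 25.3 CPM in CBRV1-10493 libraries and 18.3, 19.6 and 24.9 CPM in control libraries. Control replicate 3 of TRAP1 lay within the treated libraries, and the log2 fold change was 0.35 in CBRV1-10493 cells against control cells (0.01 to 0.70; adjusted p = 1, edgeR's quasi-likelihood test) and 0.25 in NnK-1 cells against control cells (-0.09 to 0.60; adjusted p = 0.771). Without control replicate 1 the value in CBRV1-10493 cells against control cells was 0.26 and without control replicate 3 it was 0.50. DNASE1 on the opposite strand covers 51.2% of the 75-base windows at the 3′ end of TRAP1.

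Among the cochaperones, STIP1 had the smallest p of all 35 members in NnK-1 cells against control cells. STIP1, also known as HOP, holds HSP70 and HSP90 together so that clients pass between them. Its libraries read 136, 92.3 and 109.8 CPM in NnK-1 cells, 96.7, 155 and 167 CPM in CBRV1-10493 cells and 177, 147 and 151 CPM in control cells. STIP1 and HSPB1 were the 2 tested members whose NnK-1 libraries all lay below the control libraries, where 7.92% of all genes did so. CBRV1-10493 replicate 1 of STIP1 lay with the NnK-1 libraries rather than with the other two of its group. The log2 fold change was -0.47 in NnK-1 cells against control cells (-0.80 to -0.14; adjusted p = 0.577, edgeR's quasi-likelihood test), a fold of 0.724, with a p that ranked 188 among 13676 genes. It was -0.17 in CBRV1-10493 cells against control cells (-0.50 to 0.16; adjusted p = 1) and 0.29 in CBRV1-10493 cells against NnK-1 cells (-0.04 to 0.63; adjusted p = 0.994).

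The STIP1 values differed with the library left out. The libraries with the 3 lowest STIP1 levels were NnK-1 replicates 2 and 3 and CBRV1-10493 replicate 1. They were also the 3 highest on the first principal component, at 26.0, 8.14 and 7.92. The part of that component in the STIP1 result was not tested. Without NnK-1 replicate 2, which lay at 0.619 of the median of the other 8 libraries, the log2 fold change in NnK-1 cells against control cells was -0.35, and without NnK-1 replicate 1 it was -0.61. With no filter on low counts it was -0.46 with an adjusted p of 0.0159 (edgeR's quasi-likelihood test). In that setting each gene was given the spread of the trend alone, and further genes passed as well. Over the 17 alternatives the sign held. In CBRV1-10493 cells against control cells the sign turned in 2 of the 17 alternatives. The highest value was 0.03, when NnK-1 replicate 2 and CBRV1-10493 replicate 1 were left out.

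BAG3, which links HSP70 and small heat shock proteins to selective autophagy, had 112, 53.6 and 77.8 CPM in NnK-1 libraries, 95.9, 85.1 and 83.3 CPM in CBRV1-10493 libraries and 94.7, 80.5 and 77.4 CPM in control libraries. Both the highest and the lowest BAG3 library were NnK-1 libraries, replicate 2 lying at 0.637 of the median of the other 8, and the log2 fold change in NnK-1 cells against control cells was -0.03 (-0.39 to 0.32). CHORDC1, a cochaperone of HSP90, stood at 21.4, 16.7 and 16.3 CPM in NnK-1 libraries, 14.4, 19.3 and 21.9 CPM in CBRV1-10493 libraries and 28.9, 18.6 and 18.4 CPM in control libraries. Control replicate 1 of CHORDC1 lay 1.57-fold above the median of the other 8, and without it the log2 fold change in NnK-1 cells against control cells was -0.01, and with all libraries -0.25. AHSA1, the activator of the HSP90 ATPase, FKBP4, an immunophilin of steroid receptor complexes, and PTGES3, the p23 that stabilises closed HSP90, had log2 fold changes of -0.10 to 0.05 over the 3 comparisons. FKBP4 shares 27% of its 3′ windows with an antisense gene. PTGES3 had a wider spread in NnK-1 cells, 326 ± 56.6 CPM, than in CBRV1-10493 cells, 307 ± 16.6 CPM, or control cells, 322 ± 5.36 CPM; the difference in spread was not tested.

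The small heat shock proteins were led by CRYAB and HSPB1, both known from reactive astrocytes and glioma. CRYAB, the alpha B crystallin, read 2087, 2152 and 2069 CPM in NnK-1 libraries, 2456, 2098 and 2109 CPM in CBRV1-10493 libraries and 2069, 2052 and 2177 CPM in control libraries. CBRV1-10493 replicate 1 was the highest, and the log2 fold change in CBRV1-10493 cells against NnK-1 cells was 0.07 (-0.10 to 0.24), or -0.02 without that library. HSPB1, which also steadies actin filaments, read 594, 541 and 479 CPM in NnK-1 libraries, 431, 601 and 683 CPM in CBRV1-10493 libraries and 824, 603 and 595 CPM in control libraries. The NnK-1 libraries of HSPB1 all lay below the control libraries, the highest of them at 594 CPM against 595 CPM in the lowest control library, and the CBRV1-10493 libraries overlapped both groups. The log2 fold change was -0.30 in NnK-1 cells against control cells (-0.59 to -0.01; adjusted p = 0.676, edgeR's quasi-likelihood test), and -0.13 without control replicate 1. A pseudogene shares 15.5% of the 75-base windows at its 3′ end.

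HSPB8, the small heat shock protein that works with BAG3, was the least even of the tested members. It had 23.1, 5.62 and 7.17 CPM in NnK-1 libraries, 11.2, 7.78 and 26.8 CPM in CBRV1-10493 libraries and 20.1, 8.50 and 7.04 CPM in control libraries. Each group thus had 1 library at 20.1 CPM or more and 2 at 11.2 CPM or less, and CBRV1-10493 replicate 3 lay 3.30-fold above the median of the other 8. The interval in CBRV1-10493 cells against control cells, -0.59 to 1.36 around a log2 fold change of 0.38, spanned more than a 2-fold change upward and left the direction unresolved. That value was -0.30 without CBRV1-10493 replicate 3 and 0.98 without control replicate 1. In NnK-1 cells against control cells the log2 fold change was 0.04 with all libraries, -0.85 without NnK-1 replicate 1 and 0.64 without control replicate 1. HSPB11, now better known as a part of the transport machinery of cilia, averaged 67.1 ± 4.13 CPM in NnK-1 cells, 71.4 ± 5.36 CPM in CBRV1-10493 cells and 74.5 ± 5.48 CPM in control cells.

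The chaperonins were steady. HSPD1, the barrel of the mitochondrial matrix, had 335, 313 and 326 CPM in NnK-1 libraries, 333, 292 and 287 CPM in CBRV1-10493 libraries and 332, 309 and 319.9 CPM in control libraries. HSPE1, its lid, had 118, 85.4 and 85.4 CPM in NnK-1 libraries, 81.6, 90.9 and 87.3 CPM in CBRV1-10493 libraries and 99.9, 87.5 and 87.5 CPM in control libraries, so that NnK-1 replicate 1 alone stood high. Neither passed the test in any comparison, and the log2 fold changes of both lay between -0.16 and 0.09. HSPE1 also shares 38.5% of its 3′ windows with a readthrough gene and pseudogenes. CCT5, a subunit of the cytosolic chaperonin that folds actin and tubulin, read 269.7, 264 and 276 CPM in NnK-1 libraries, 254, 236 and 255 CPM in CBRV1-10493 libraries and 256, 243 and 287 CPM in control libraries. All its CBRV1-10493 libraries lay below all NnK-1 libraries, with a log2 fold change of -0.13 (-0.33 to 0.06; adjusted p = 0.994, edgeR's quasi-likelihood test), and an antisense gene covers its whole 3′ end. TCP1, CCT2 and CCT3, further subunits of the same barrel, TCP1 sharing 62.7% of its 3′ windows with ACAT2, had log2 fold changes of -0.10 to 0.09 over the 3 comparisons. Of the 6 chaperonin genes 5 lay above 0 in NnK-1 cells against control cells, with a median of 0.07, and 1 in CBRV1-10493 cells against control cells, with a median of -0.05, beside 50.6% and 50.8% of all genes.

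**Figure D4:**
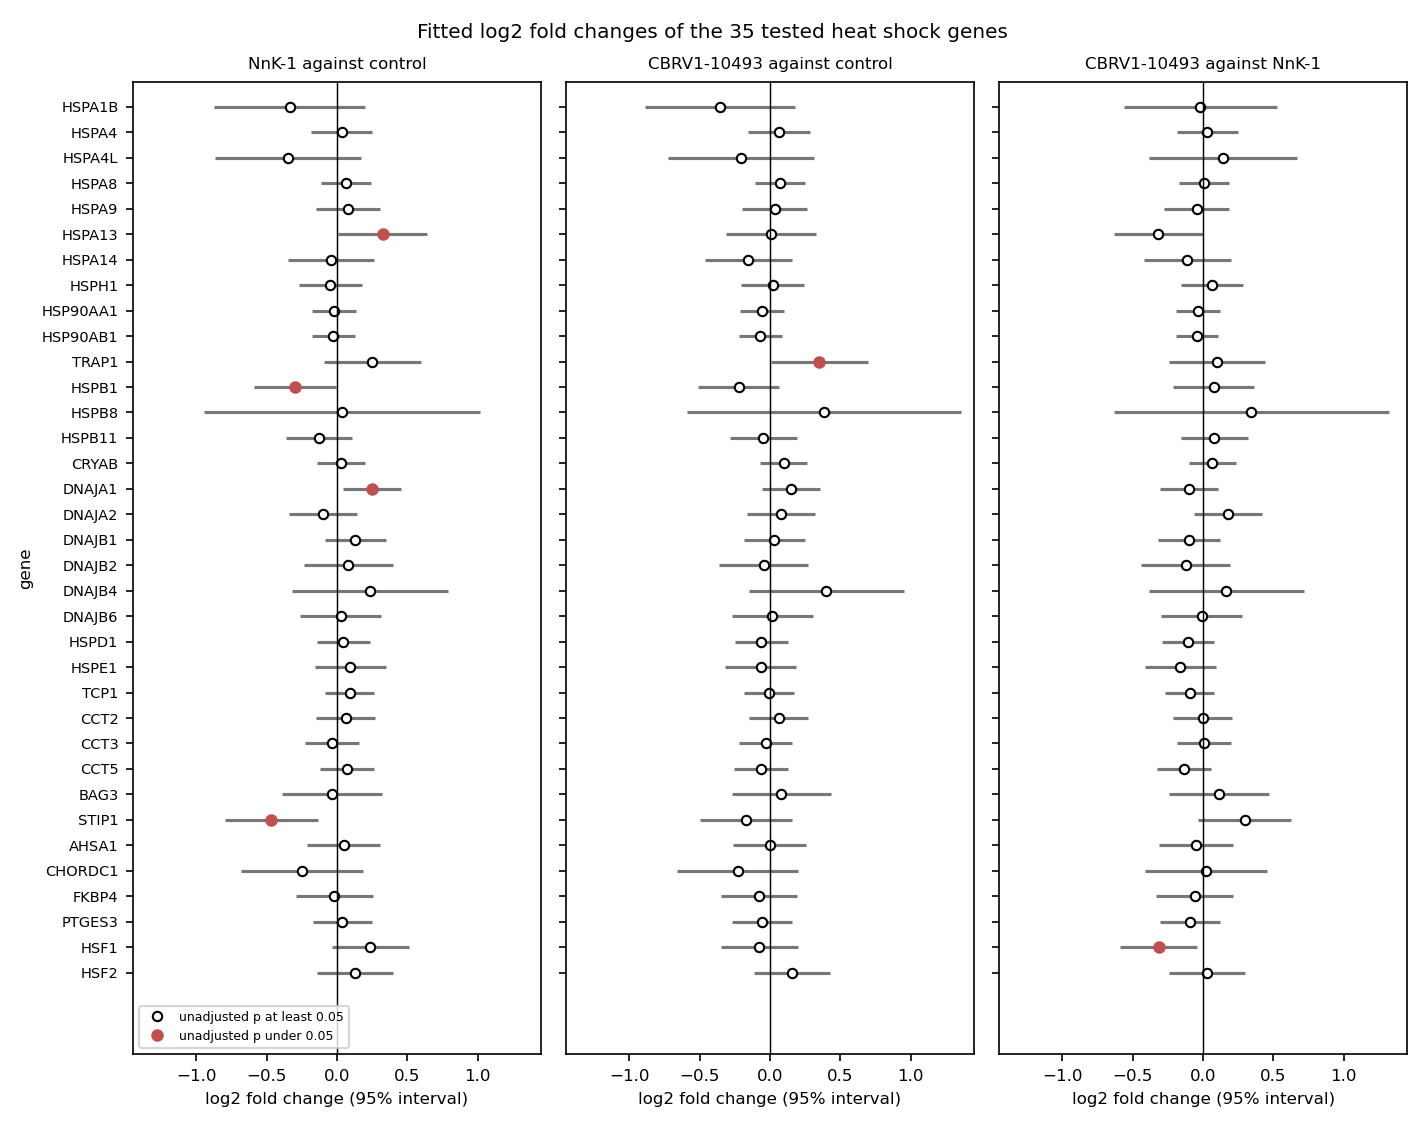
Log2 fold changes of the 35 tested members with 95% intervals, for NnK-1 over control, CBRV1-10493 over control and CBRV1-10493 over NnK-1 from left to right; filled points have an unadjusted p under 0.05. There are 4, 1 and 1 filled points in the 3 panels in this order, and HSPB8 has the widest interval in each.

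The other chaperone and cochaperone genes, a list of 63 with 54 tested, also held 0 genes past the adjusted threshold in each comparison. Of the 54, 22 lay above 0 in NnK-1 cells against control cells with a median log2 fold change of -0.03, 22 in CBRV1-10493 cells against control cells with a median of -0.03, and 30 in CBRV1-10493 cells against NnK-1 cells with a median of 0.02, beside 50.6%, 50.8% and 50.3% of all genes. An unadjusted p under 0.05 was found for 5 of them in NnK-1 cells and 2 in CBRV1-10493 cells against control cells, each one lower, and for 3 between the peptides, beside 7.33%, 2.89% and 4.31% of all genes tested. The 2 with the smallest p in NnK-1 cells against control cells were DNAJC2 and LONP1. DNAJC2, the ribosome-bound partner of HSPA14, had 65.5, 49.8 and 67.0 CPM in NnK-1 libraries against 90.9, 88.5 and 74.0 CPM in control libraries, all lower, with a log2 fold change of -0.45 (adjusted p = 0.499, edgeR's quasi-likelihood test). LONP1, the protease that clears misfolded proteins from the mitochondrial matrix, had 56.8, 46.7 and 50.6 CPM in NnK-1 libraries, 50.8, 57.6 and 57.8 CPM in CBRV1-10493 libraries and 68.2, 66.2 and 76.7 CPM in control libraries. All treated libraries of LONP1 lay below all control libraries, with the controls shared. On the log2 scale the difference was -0.43 in NnK-1 cells (adjusted p = 0.499) and -0.33 in CBRV1-10493 cells (adjusted p = 1). Of all genes tested, 7.92% had all NnK-1 libraries below all control libraries. No such share was counted for CBRV1-10493 cells, and DNAJC2 and LONP1 were chosen by their p in these data.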

How the data were processed

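RNA of 9 libraries (3 per group) was extracted with TRIzol, 500 ng went into each QuantSeq 3′ library, RNA integrity was at least 9 and sequencing was single-end at 75 bp on a NextSeq 550, per the labels. Bowtie2, bedtools and hg19 are named in the submitters' processing notes. Versions, annotation and strand handling are not stated in the sources at hand. The authors deposited whole-number read counts by gene symbol, 1 table per library and not normalized. Replicates are called biological in the labels, which do not say that each was its own culture, so p-values measure only the spread between these libraries, which may be technical; each pair of libraries in a group differed by more than sampling noise.

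Rows of a symbol were summed (286 symbols on 1561 of 25737 rows). Genes were kept by filterByExpr (minimum count 10, minimum total 15), scaled by TMM and fitted over all 9 libraries with edgeR 4.0.16 and its quasi-likelihood test (limma 3.58.1, R 4.3.3), two-sided, with Benjamini-Hochberg adjustment over 13676 genes and a threshold of 0.05; the common biological coefficient of variation was 0.169. CPM is count over library total, not TMM-scaled. The test was run on simulated data with known changes, where it missed part of the changes and made some false calls. Members, gene lists and tests were chosen with earlier results of these data known. Values per library are given for the 4 members with the smallest p on each side of each comparison, for 13 anchor genes and for members with 1 library 1.5-fold or more from the median of the other 8 (mean of at least 5 CPM). The 16 other settings listed at the outset were DESeq2 1.42.0 size factors, library totals, no filter, the DESeq2 Wald test, the replicate block, only the 6 libraries compared, the row with the highest total per symbol and each library left out; 1 more, without NnK-1 replicate 2 and CBRV1-10493 replicate 1, was chosen after seeing the data. Sequence windows come from GENCODE transcripts and RefSeq promoters of GRCh38, not the build of the counts, and were used for names, neighbours and printed promoters only. Intervals of counts cover counting error only.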

Additional observations from a re-analysis of the deposited data

How the results depend on the processing

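Counts of members past the adjusted threshold stayed at 0 under all alternatives with 1 exception: with no filter on low counts 1 member, STIP1, passed in NnK-1 cells against control cells. In that setting 74 of 18756 genes passed in NnK-1 cells against control cells, 6 in CBRV1-10493 cells against control cells and 1 in CBRV1-10493 cells against NnK-1 cells, beside 0 in each with the filter; the fit then gave each gene the spread of the trend alone, where the filtered fit had 13.7 prior degrees of freedom. The DESeq2 Wald test called 3 genes in NnK-1 cells against control cells, none of them members. With group means removed, correlations of same-numbered libraries ran from -0.16 to 0.30, beside -0.28 to 0.23 for differently numbered libraries of different groups. The labels do not say whether a replicate number marks a shared culture or day. The replicate block called 0 genes in each comparison. It gave STIP1 an adjusted p of 0.679 in NnK-1 cells against control cells (edgeR's quasi-likelihood test). STIP1 in that comparison ranged from -0.61 to -0.35 over the alternatives, HSPB1 from -0.37 to -0.13 and HSF1 from 0.10 to 0.33. The cause of these shifts was not tested. Intervals were wider for members near 10 CPM: in NnK-1 cells against control cells DNAJB4 had -0.32 to 0.79 and HSPB8 -0.94 to 1.02, beside -0.18 to 0.13 for HSP90AA1.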

Other observations

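HSPB8 had 1 high library in each group. The 3 libraries with the highest HSPB8 were CBRV1-10493 replicate 3 at 26.8 CPM, NnK-1 replicate 1 at 23.1 CPM and control replicate 1 at 20.1 CPM. They were the 3 lowest on the first principal component, at -11.6, -10.7 and -15.5. HSPB8 was itself among the genes of the component, the libraries came 1 from each group, and the relation was not tested. NnK-1 replicate 2 lay at the other end of the component. Of the 10617 genes used for the component, 5.90% lay 1.5-fold or more from the median of the libraries in it, against 1.79% to 3.01% in the other 8 libraries.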
